A study of Homo sapiens with 3 samples.

Results

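The SOX lineage factors described here are 10 genes, SOX2, SOX4, SOX6, SOX7, SOX9, SOX11, SOX12, SOX13, SOX15 and SOX18, taken by gene name from the 58735 genes in the count and FPKM tables of 3 human prostate cancer cell lines. The series design names LNCAP cells, grown from a lymph node deposit, as androgen-dependent prostate cancer (ADPC). It names PC3, grown from a bone metastasis, and DU145, grown from a brain metastasis, as castration-resistant cancer (CRPC), which keeps growing when androgen is withdrawn. The labels give no treatment, and the 3 cultures shared a temperature of 37 °C, 5% CO2 and 10% serum, with 3 media listed but not assigned to a line. Libraries were made from 4 ug of total RNA. Each line gave 1 library and is a model of 1 tumour, so there were no replicates, every interval covers counting error only, and line, culture, medium and library cannot be told apart.

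SOX proteins share a DNA-binding domain, the HMG box, with the sex-determining factor SRY, bind the minor groove of DNA and bend it. They are sorted into lettered groups by the likeness of that box, and members of 1 group often act redundantly in the same cells. Several of them hold progenitor states or set lineages: SOX2 in pluripotent cells and neural progenitors, SOX9 in cartilage and in the budding prostate epithelium, SOX7 and SOX18 in blood vessels. In the prostate, SOX4 and SOX9 are known as factors of tumour growth, and SOX2 as a factor of basal cells and of tumours that lose their luminal identity.

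Library totals lay between 15319045 and 15878546 counts, and levels are given as CPM, the count scaled to a common library size with TMM factors. Prostate markers differed between the lines: KLK3, the gene of prostate-specific antigen, was read in LNCAP (2271 CPM) and was at 0 counts in the other lines. HOXB13, a prostate homeobox gene, was at 329, 387 and 0 CPM, so both of these markers were at 0 counts in DU145. CTNNA1 was low in PC3 (2.16 CPM) and CDKN2A was highest in DU145 (427 CPM).

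Of the 10 members, 8 reached 1 CPM in at least 1 library and entered the comparisons. SOX2 and SOX18 were under 1 CPM in every library. PC3 was the line with the highest level for 7 members, LNCAP for 2 and DU145 for 1. The highest level was separated from the next line by its 95% counting interval for 5 members in PC3 (SOX4, SOX7, SOX9, SOX12 and SOX13), for SOX11 in LNCAP and for SOX15 in DU145. At high counts this interval separates small ratios, such as 1.31-fold for SOX12 in PC3 against LNCAP. The share of all tested genes highest or separated in each line was not taken, so these counts describe the members only. The 4 single-exon members, SOX2, SOX4, SOX11 and SOX12, ranged from near 0 to the top of the family. In bulk RNA a smaller share of cells with a gene and less of its RNA per cell cannot be told apart.

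**Figure D1:**
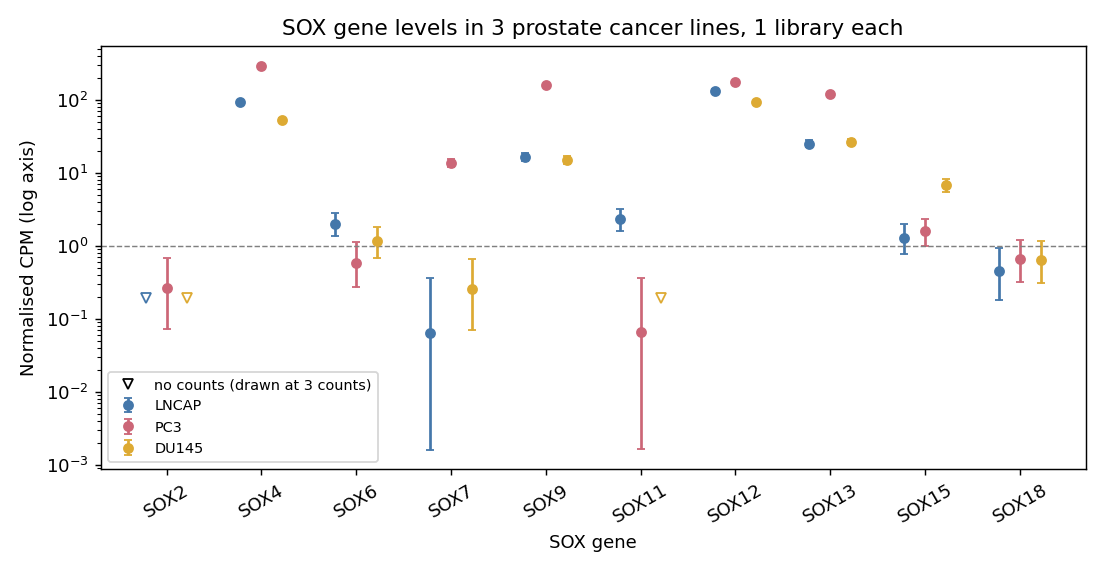
Normalised CPM (log axis) of the 10 SOX genes in LNCAP, PC3 and DU145, 1 library each, with exact Poisson 95% intervals and open triangles, drawn at the level of 3 counts, for libraries with no counts. SOX4, SOX9, SOX12 and SOX13 stand above 10 CPM in each line, SOX7 does so in PC3 alone (13.6 CPM), and SOX2 and SOX18 stay below the dashed line at 1 CPM.

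The upstream sequence is shown for 3 members that differ in how widely they were read: SOX12, well read in each line, SOX13, highest in PC3, and SOX2, at or near 0 counts. The windows are the 250 bases before the RefSeq start site (GRCh38.p14), all on the plus strand: chr20:325302-325551 for SOX12, chr1:204072865-204073114 for SOX13 and chr3:181711675-181711924 for SOX2. Capitals mark GC boxes (GGGCGG on either strand) and CCAAT boxes (CCAAT on either strand).
SOX12: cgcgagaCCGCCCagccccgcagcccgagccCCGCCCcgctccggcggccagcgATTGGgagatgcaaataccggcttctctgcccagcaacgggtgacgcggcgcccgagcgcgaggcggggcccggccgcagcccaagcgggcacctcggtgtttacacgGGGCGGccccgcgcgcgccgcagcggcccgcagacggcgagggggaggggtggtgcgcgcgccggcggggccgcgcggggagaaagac
SOX13: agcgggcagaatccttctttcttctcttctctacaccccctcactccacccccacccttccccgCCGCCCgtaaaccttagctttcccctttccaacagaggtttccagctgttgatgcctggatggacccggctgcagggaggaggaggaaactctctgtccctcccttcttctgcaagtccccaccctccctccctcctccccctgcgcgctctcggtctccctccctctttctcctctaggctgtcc
SOX2: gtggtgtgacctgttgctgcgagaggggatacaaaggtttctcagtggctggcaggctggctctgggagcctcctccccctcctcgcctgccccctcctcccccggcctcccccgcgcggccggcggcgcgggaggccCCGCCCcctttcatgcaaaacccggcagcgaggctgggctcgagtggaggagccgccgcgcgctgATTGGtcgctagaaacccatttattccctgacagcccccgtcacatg

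The SOX12 window held 3 GC boxes, 1 CCAAT box and 42 CpG dinucleotides, at 79.2% G and C. The SOX2 window held 1 of each box and 20 CpG dinucleotides (68.8%), and the SOX13 window 1 GC box, no CCAAT box and 8 CpG dinucleotides (60.8%). Over the same window of 35116 RefSeq promoters, 42.6% held a GC box and 32% a CCAAT box, and the median was 11 CpG dinucleotides and 58% G and C. The TATA box (TATAAA) and the SOX core motif (AACAAT), searched on both strands, had no match in these 3 windows, against 10.7% and 8.98% of all promoters. Among the windows not shown, some of those of SOX6 held these motifs and that of SOX4 held neither. A match here is a description of letters and not a site of binding. Of the 10 members, 5 had an entry in the promoter table.

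Members of the SOXC group, single-exon genes of progenitor cells, carried most of the SOX signal. SOX4 (ENSG00000124766, chromosome 6, 21592768 to 21598619) is a progenitor factor that many carcinomas express. Its counts were 1439, 4398 and 819 in LNCAP, PC3 and DU145, which is 92.0, 288 and 52.3 CPM. PC3 was highest and DU145 lowest, and the intervals of the 3 lines did not overlap. An antisense model that shares 168 of its exonic bases held at most 1 count in any library. SOX4 was 3.13-fold higher in PC3 than in LNCAP (95% counting interval 2.94 to 3.32), 1.76-fold lower in DU145 than in LNCAP (1.62 to 1.92) and 5.50-fold higher in PC3 than in DU145 (5.11 to 5.94).

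SOX12 (ENSG00000177732, chromosome 20, 325595 to 330224) is the least studied of the group and is read widely in embryonic tissue. Its counts were 2069, 2643 and 1441 in the same order of lines, or 132, 173 and 92.0 CPM. The order of the lines was the order seen for SOX4, at a much smaller range. PC3 against LNCAP was 1.31-fold (1.23 to 1.38) and PC3 against DU145 1.88-fold (1.76 to 2.01), while DU145 was 1.44-fold lower than LNCAP (1.34 to 1.54). No pair of lines was 4-fold apart in SOX12. The antisense gene NRSN2-AS1, whose model spans SOX12 without a shared exonic base, had 98, 49 and 31 counts.

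SOX11 (ENSG00000176887, chromosome 2, 5692667 to 5701385), a factor of immature neurons, was highest in LNCAP. It had 36 counts in LNCAP (2.30 CPM), 1 in PC3 (0.0654 CPM) and none in DU145. The LNCAP interval of 1.61 to 3.19 CPM lay above the upper limit of 0.365 CPM in PC3. SOX11 was 35.2-fold lower in PC3 than in LNCAP, from 1 PC3 count (5.93 to 1428), and at least 12.0-fold lower in DU145. No fold between PC3 and DU145 was taken, since both were at 3 counts or fewer.

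In the SOXD group, whose proteins lack a transactivation domain of their own, the 2 members differed. SOX13 (ENSG00000143842, chromosome 1, 204073115 to 204127743) is a partner of T-cell factors of the Wnt pathway. Its counts were 392, 1809 and 413 in that order, or 25.1, 118 and 26.4 CPM. LNCAP and DU145 were not separated (1.05-fold, 0.913 to 1.21), and PC3 stood above both, 4.72-fold over LNCAP (4.23 to 5.28) and 4.49-fold over DU145 (4.03 to 5.01).

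SOX6 (ENSG00000110693, chromosome 11, 15966449 to 16739591), a repressor or coactivator in cartilage and red cells, was low throughout, at 31, 9 and 18 counts in LNCAP, PC3 and DU145 (1.98, 0.589 and 1.15 CPM). It was 3.37-fold lower in PC3 than in LNCAP (1.57 to 8.04), while neither of these lines was separated from DU145. The SOX6 model shares 219 exonic bases, 1.12% of its own, with C11orf58 on the other strand, a gene at 131 to 198 CPM. Since the strand setting of the counting is not given, the part of that gene in the SOX6 counts was not tested.

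SOX9 (ENSG00000125398, chromosome 17, 72121020 to 72126420), the SOXE factor of cartilage and of prostate buds, was read with 255 LNCAP counts, 2436 PC3 counts and 233 DU145 counts. These are 16.3, 159 and 14.9 CPM, so PC3 stood apart from the other 2 lines, which were not separated from each other (1.10-fold, 0.915 to 1.32). SOX9 was 9.77-fold higher in PC3 than in LNCAP (8.58 to 11.2) and 10.7-fold higher than in DU145 (9.37 to 12.3). The antisense gene SOX9-AS1, whose model spans SOX9 without a shared exonic base, had 5, 22 and 8 counts in the same order. SOX9-AS1 was 4.50-fold higher in PC3 than in LNCAP (1.66 to 15.2), on far fewer reads.

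In the SOXF group of endothelial factors, SOX7 (ENSG00000171056, chromosome 8) was read with 1 LNCAP count, 208 PC3 counts and 4 DU145 counts, which is 0.0640, 13.6 and 0.255 CPM. PC3 stood above both other lines, whose own intervals overlapped. SOX7 was 213-fold higher in PC3 than in LNCAP, from 1 LNCAP count (37.8 to 8442), and 53.3-fold higher than in DU145, from 4 DU145 counts (20.5 to 197). A model on the same strand that carries the name of the next gene, PINX1, shares 1268 exonic bases with SOX7, 39.4% of its bases, and is listed at 0 counts in each library, so how reads of the shared part were assigned is not known. SOX18 (ENSG00000203883, chromosome 20, 64047582 to 64049641), the other SOXF member, had 7, 10 and 10 counts in LNCAP, PC3 and DU145 (0.448, 0.654 and 0.638 CPM), and no pair of lines was separated.

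SOX15 (ENSG00000129194, chromosome 17, 7588178 to 7590170), the SOXG member, known from muscle progenitors and squamous epithelium, was the member with its highest level in DU145. Its counts were 20, 24 and 105 in LNCAP, PC3 and DU145, or 1.28, 1.57 and 6.70 CPM. SOX15 was 5.24-fold higher in DU145 than in LNCAP (3.23 to 8.92) and 4.27-fold lower in PC3 than in DU145 (2.72 to 6.96), and LNCAP and PC3 were not separated (1.23-fold, 0.650 to 2.34). MPDU1, which overlaps SOX15 on the other strand in 15 exonic bases, was at 83.3, 33.4 and 104 CPM, also highest in DU145. Its part in the SOX15 counts was not tested.

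SOX2 (ENSG00000181449, chromosome 3, 181711924 to 181714436), the SOXB1 pluripotency factor, had no counts in LNCAP or DU145 and 4 in PC3 (0.262 CPM, 0.0713 to 0.670). The same 2-sided Poisson interval reaches up to 0.236 CPM in LNCAP and 0.235 CPM in DU145, and the limit of 3 counts used for folds is 0.192 and 0.191 CPM. The lines were not separated, and no difference in SOX2 was detected at this depth. SOX2-OT, the long non-coding gene that holds SOX2 in an intron, had 2, 4 and 5 counts in LNCAP, PC3 and DU145.

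Levels were compared between members per length, as FPKM. The 10 members summed to 52.3 FPKM in LNCAP, 148 in PC3 and 40.9 in DU145. SOXC genes made up 83.6%, 58.2% and 70.3% of the sum in that order. SOX9 made up 7.78% in LNCAP, 27.2% in PC3 and 9.23% in DU145, and SOX15 made up 10.6% in DU145 against 1.56% in LNCAP and 0.685% in PC3. Among all 19 SOX genes read here, which leave out SRY, the 10 members held 96.9%, 93.5% and 97.5% of the FPKM.

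**Figure D2:**
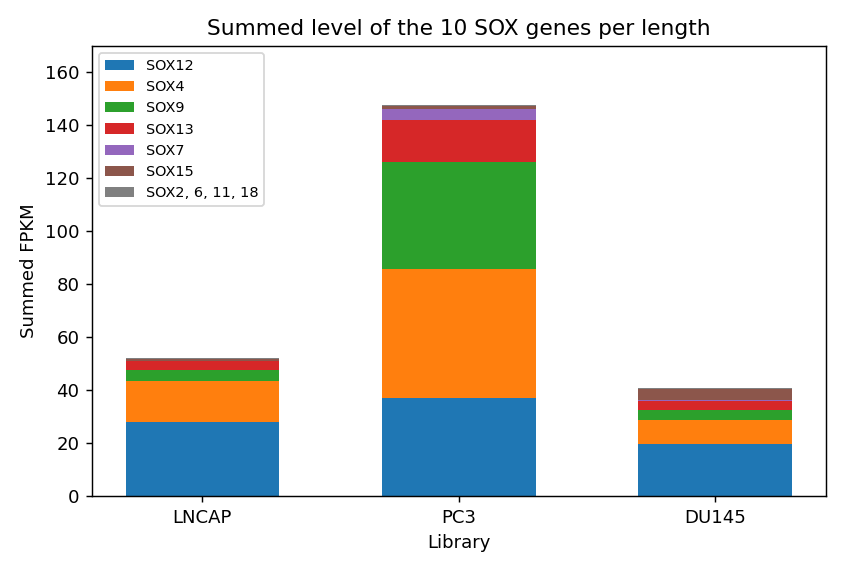
Summed FPKM of the 10 SOX genes in each library, stacked by gene. The bar of PC3 reaches 148 FPKM against 52.3 in LNCAP and 40.9 in DU145, and the SOX4 and SOX9 segments are the widest in PC3 (48.8 and 40.2 FPKM).

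The order of members also differed between the libraries. SOX12 led in LNCAP (28.1 FPKM) and DU145 (19.8 FPKM), 1.82-fold (1.70 to 1.95) and 2.22-fold (2.04 to 2.43) above SOX4. In PC3 the order began with SOX4 (48.8 FPKM), SOX9 (40.2 FPKM) and SOX12 (37.1 FPKM), with neighbours 1.21-fold (1.16 to 1.28) and 1.08-fold (1.03 to 1.15) apart. SOX4 in PC3 lay above 95.7% of the tested genes in FPKM, and SOX9 above 94.4%, while in DU145 these shares were 70.6% and 52.0%. In DU145 SOX15, SOX9 and SOX13 (4.34, 3.77 and 3.55 FPKM) were neighbours that did not separate.

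PC3 was set against LNCAP as a castration-resistant line against the androgen-dependent one. The threshold for a call was a 4-fold ratio, taken after adding 0.5 to each count, with a counting interval that left out a ratio of 1. Of the 8 members tested, SOX7, SOX9 and SOX13 were higher in PC3, SOX11 was lower and 4 were under 4-fold. Among all 18025 genes tested, 13% were higher and 13.4% lower, 26.4% in all. The median log2 ratio of the 8 members was 1.01, against -0.01 for all tested genes. These values are a description only. The members were chosen with earlier results of these data known, and SOX7 passed the 1 CPM filter through PC3 alone.

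In DU145 against LNCAP, SOX15 was higher, SOX11 was lower and 6 members were under 4-fold. The share of all tested genes was 13.7% higher and 12.1% lower, 25.8% in all, so the 2 of 8 members called lie near the background. The interval included a ratio of 1 for SOX6, SOX7, SOX9 and SOX13. Both comparisons use the same LNCAP library: SOX9 had log2 ratios of 3.29 in PC3 and -0.13 in DU145, SOX13 of 2.24 and 0.07, and SOX11 of -4.58 and -6.19.

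Between the castration-resistant lines, SOX4, SOX7, SOX9 and SOX13 were higher in PC3, SOX15 was lower and 3 members were under 4-fold. The background was 8.54% higher and 10.6% lower, 19.1% in all. Because a member could pass the 1 CPM filter through the line in which it is high, and with 8 members, these counts are given as a description.

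**Figure D3:**
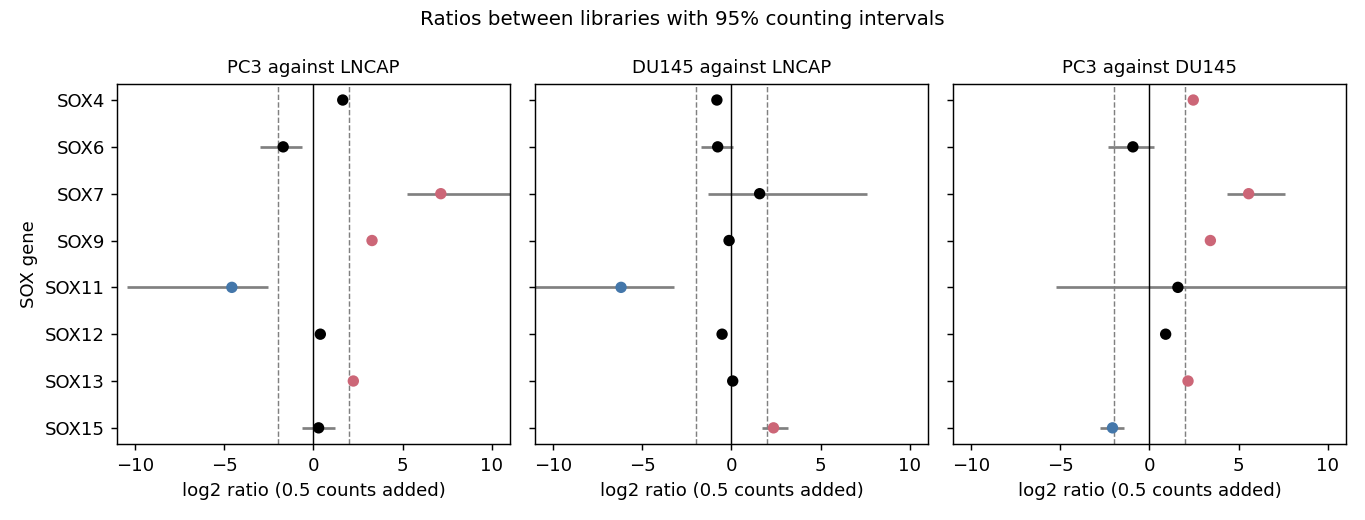
The log2 ratio of the 8 tested SOX genes in each pair of libraries, with 95% counting intervals as grey lines, 4-fold marked by dashed lines, red for higher and blue for lower calls. SOX9 and SOX13 lie near 0 in DU145 against LNCAP and past the 4-fold line in both panels with PC3, and lines that reach the edge of a panel go on beyond it.

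For the class comparison the 2 castration-resistant libraries formed 1 group, whose spread is the difference between PC3 and DU145, with 1 residual degree of freedom. No member was called by edgeR's quasi-likelihood test with Benjamini-Hochberg adjustment, and 0% of the 18025 genes were. At an unadjusted p under 0.05 it held 1746 genes (9.69%) and 0 members. DESeq2 called 1306 genes (7.25%) and no member, with 1 member, SOX7, at an unadjusted p under 0.05, and limma-voom called 0 genes, with 1334 at an unadjusted p under 0.05. The smallest adjusted p of a member by edgeR was 0.536, for SOX11, whose LNCAP level stood above both other lines.

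Other SOX genes were read beside the members. Of 9 such genes, 3 reached 1 CPM. SOX21, a factor related to SOX2 in its HMG box, had no counts in LNCAP, 427 in PC3 (27.9 CPM) and 8 in DU145, at least 146-fold higher in PC3 than in LNCAP and 54.7-fold higher than in DU145 (27.5 to 128). Its antisense neighbour SOX21-AS1 was at 0.192, 17.9 and 0.830 CPM in that order of lines, 93.1-fold higher in PC3 than in LNCAP (31.5 to 454). SOX8, the relative of SOX9 in the SOXE group, was highest in LNCAP (7.48, 0.131 and 0.255 CPM), 57.2-fold lower in PC3 (15.5 to 478) and 29.3-fold lower in DU145 (11.1 to 109). PC3 and LNCAP thus stood in the reverse order to SOX9, while DU145 was far below LNCAP in SOX8 and not separated from it in SOX9. SOX17, a SOXF gene, had 25 counts in DU145 and none elsewhere, at least 8.31-fold higher than in LNCAP.

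Of 15 genes of the SOX2 stem cell network 7 were tested, with 3 higher and none lower in PC3 against LNCAP, and 4 higher and none lower in DU145 (median log2 ratios 1.83 and 2.89). For all lists below, the median over all tested genes was -0.01 in PC3 and -0.00 in DU145, and the shares called are those given above. NES, the nestin gene of neural progenitors, was at 0.640 CPM in LNCAP, 281 in PC3 and 17.0 in DU145, and PAX6, an eye and brain factor, at 0, 14.9 and 1.60 CPM. ZFP42, a pluripotency marker, was read in DU145 (8.49 CPM) and at 1 count or none in LNCAP and PC3. NANOG, LIN28A and LIN28B had at most 3 counts in any library. POU5F1 had 70, 17 and 18 counts and has processed copies elsewhere in the genome, so its value is uncertain.

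Of 9 basal and squamous genes read beside SOX2, 5 were tested, with 1 higher and 2 lower in both PC3 and DU145 against LNCAP (medians -1.06 and -0.56). ITGB4, an integrin gene of basal cells, was 91.4-fold higher in PC3 (71.1 to 120) and 31.0-fold higher in DU145 (24.0 to 40.7). The keratin genes KRT14 (5.69, 0 and 0 CPM) and KRT6A (1.02, 0 and 0.128 CPM) were the lower ones, with near-identical copies elsewhere in the genome that make their values uncertain. TP63, the master factor of basal cells, had no counts in any library.

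SOX9 is known to drive cartilage matrix genes. Of 20 listed genes, SOX6 among them, 11 were tested: 3 were higher and 1 lower in PC3 against LNCAP, and 2 higher and 3 lower in DU145 (medians 0.42 and -0.33). COL2A1, the type II collagen gene, had 1, 3 and 0 counts in LNCAP, PC3 and DU145, and ACAN, the aggrecan gene, 4, 1 and 0. HAPLN1, a link protein gene, had 32 counts in PC3 and none elsewhere (at least 10.9-fold higher than in LNCAP), and CHAD was 5.70-fold higher in PC3 (2.52 to 15.1). COL27A1, a fibrillar collagen gene, was 23.2-fold higher in PC3 (12.7 to 47.0) and 20.9-fold higher in DU145 (11.4 to 42.4), where SOX9 was not separated from LNCAP. FGFR3 was 87.6-fold lower in PC3 than in LNCAP (37.3 to 271), from 28.7 to 0.327 CPM. It was also 6.80-fold lower in DU145 (5.24 to 8.95). The part of SOX9 in the levels of these genes was not tested.

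All 15 genes in the list of SOX9 and Wnt genes were tested, with 3 higher and 3 lower in PC3 and 3 higher and 2 lower in DU145 against LNCAP (medians 0.42 and 0.00). LGR5, a stem cell receptor of the Wnt pathway, had no counts in LNCAP or DU145 and 555 in PC3, at least 189-fold higher. LEF1, a T-cell factor family gene, was at least 13.7-fold lower in PC3, with 42, 0 and 4 counts in LNCAP, PC3 and DU145. BMP4 was 89.6-fold higher in DU145 (38.1 to 277) and 14.9-fold higher in PC3 (6.11 to 47.4), from 5 LNCAP counts. FZD5, a Wnt receptor gene, was 6.47-fold lower in PC3 (5.52 to 7.63) and 4.03-fold lower in DU145 (3.54 to 4.60).

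Of 16 genes described as targets of SOX4 or SOX11, 14 were tested, with 2 higher and 4 lower in PC3 against LNCAP and 4 higher and 3 lower in DU145 (medians -0.55 and 0.24). TNC, the tenascin C gene, was 207-fold higher in PC3 (140 to 320) and 111-fold higher in DU145 (75.1 to 172), the line with the lowest SOX4. TEAD2 was 14.3-fold higher in PC3 (11.6 to 17.9) and 4.47-fold in DU145 (3.57 to 5.66). DLL1, a Notch ligand gene, was at least 20.2-fold lower in PC3 and 20.7-fold lower in DU145 (6.77 to 103). SEMA3C was 5.54-fold lower in PC3 (5.10 to 6.02) and 1.05-fold higher in DU145 (1.01 to 1.10). The part of SOX4 or SOX11 in the levels of these genes was not tested.

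The list of endothelial genes that go with SOX7 and SOX18 was divided. Of 20 genes 13 were tested, 6 higher and 6 lower in PC3 against LNCAP, and 4 higher and 3 lower in DU145 (medians 1.04 and 0.76). The 6 higher in PC3 were ROBO4 at 29.6 CPM, PECAM1 at 20.1, KDR at 19.0, MEF2C at 11.4, ESAM at 8.96 and FLT1 at 5.04 CPM, each under 1 CPM in LNCAP. KDR, the main receptor of vascular growth factor, was 297-fold higher in PC3 from 1 LNCAP count (52.8 to 11755). Among the 6 lower, FLT4 had 6 LNCAP counts and none in PC3, a bound of at least 1.96-fold. The endothelial genes CDH5, TEK, TIE1 and PLVAP had at most 3 counts in any library, and VWF was highest in LNCAP (9.21 CPM, against 0.0654 and 0). The summed level of the 20 genes ran from 205 CPM in DU145 and 289 in PC3 to 440 in LNCAP. This order rests on GATA2, at 336 CPM in LNCAP, 54.1 in PC3 and 27.6 in DU145. Without GATA2 the sum was lowest in LNCAP and highest in PC3. The part of other cells in these levels was not tested.

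**Figure D4:**
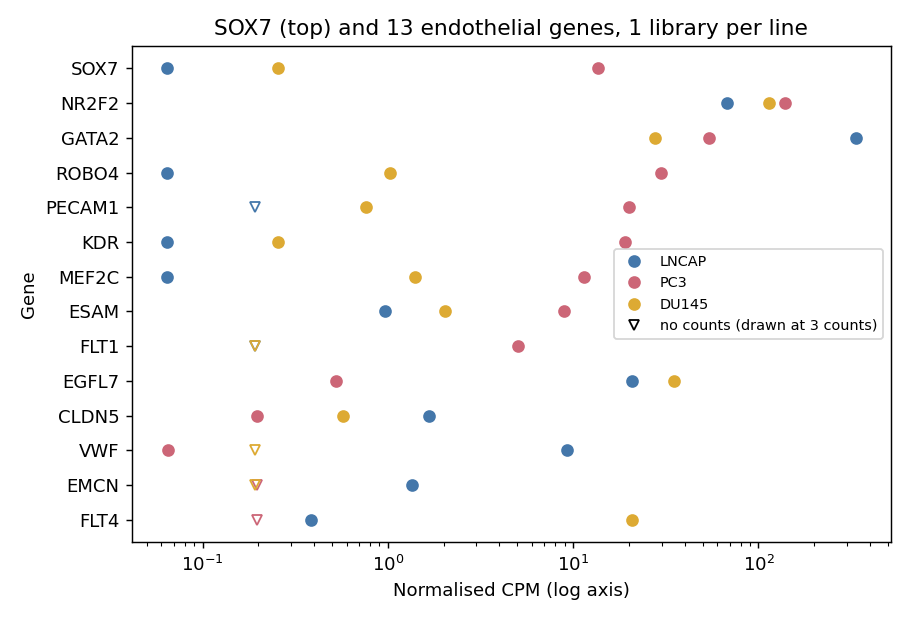
Normalised CPM (log axis) of SOX7 and the 13 tested endothelial genes in the 3 libraries, with open triangles at the level of 3 counts for libraries with no counts. SOX7, ROBO4, PECAM1, KDR, MEF2C, ESAM, FLT1 and NR2F2 are highest in PC3. VWF, EMCN, CLDN5 and GATA2 are highest in LNCAP, and FLT4 and EGFL7 in DU145.

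Markers of other lineages were also read. Among 11 neural crest and glial genes, SOX10 had 1, 2 and 2 counts in LNCAP, PC3 and DU145, and 5 genes were tested, with 2 higher and 1 lower in PC3 and 3 higher and 1 lower in DU145 against LNCAP. TFAP2A was 20.2-fold higher in DU145 than in LNCAP (15.8 to 26.1) and 7.14-fold higher in PC3 (5.54 to 9.33). ERBB3 was at 189, 17.1 and 31.4 CPM, lower in both PC3 and DU145. Of 10 neuroendocrine markers, which summed to 8.64, 94.3 and 48.7 CPM in LNCAP, PC3 and DU145, 3 were tested and 2 of them were higher in both lines (medians 3.46 and 2.96): FOXA2 at 0, 27.6 and 1.02 CPM and ENO2 at 5.82, 64.5 and 45.6 CPM. FOXA2 and ENO2 made up most of the sums in PC3 and DU145. The other tested marker, SYP, was highest in LNCAP (1.86, 0.981 and 1.34 CPM), and no pair of lines was separated. CHGA had 10, 0 and 1 counts in LNCAP, PC3 and DU145. INSM1 and NEUROD1 had no counts in any library. Of 12 blood and fibroblast markers 3 were tested, and their summed level was 36.2, 48.6 and 11.2 CPM, mostly COL1A1 (33.1, 31.9 and 9.45 CPM) and, in PC3, COL3A1 (15.6 CPM), with CD3E, HBB, HBA1 and LUM at 0 in each library and PTPRC at 1, 7 and 0 counts.

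The pattern of each member at 10 CPM or more in a library was set beside the 92 other member and list genes tested, by the distance between centred log2(CPM + 0.5) values over the 3 libraries. SOX7 was most like KDR (distance 0.38), and SOX4 most like CHAD (0.27) and then KLF4 (0.34; 31.2, 111 and 14.1 CPM). By this measure SOX9 was nearest to FLT1 (0.16) and SOX13 to HAPLN1 (0.17), but both of these genes had no counts in LNCAP and DU145, so their distances are set by the 0.5 added and show no likeness in fold. The added value also weighs on KDR and CHAD, which were under 0.5 CPM in LNCAP and DU145. The next gene for SOX13 was HES1 (0.28), which was at 14.6, 53.8 and 12.4 CPM. SOX12 was nearest to SNAI2 (0.16; 5.76, 6.93 and 4.15 CPM). With 3 libraries many genes share an order by construction, so these are descriptions.

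Genes beside the members were read in the same libraries. ETNK2, 3.32 kb from the end of SOX13, was also higher in PC3, 14.8-fold over LNCAP, and was 8.51-fold higher in DU145, where SOX13 was not. SNRPE, on the other side of SOX13, was at 51.6, 52.4 and 52.1 CPM. Of 15 protein-coding genes tested within 1000 kb of SOX13, 1 was higher and 3 were lower in PC3 against LNCAP (median log2 ratio -0.12, against 2.24 for SOX13). Of 9 around SOX7, none was higher and 3 were lower (median -0.58, against 7.15 for SOX7), and PINX1, its neighbour, stood at 6.59, 4.38 and 7.98 CPM. Over all tested genes 13% were higher and 13.4% lower in PC3 against LNCAP, the background for each such window here and below.

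SOX9 lies in a gene-poor stretch, with KCNJ2 1941 kb to one side and SLC39A11 520 kb to the other. KCNJ2 had 3, 116 and 0 counts in LNCAP, PC3 and DU145, 39.5-fold higher in PC3 than in LNCAP from 3 LNCAP counts, and SLC39A11 was 2.02-fold lower there. LINC00511, a long non-coding gene between SOX9 and SLC39A11, was highest in DU145 (4.73, 14.1 and 24.6 CPM). SOX4 has CDKAL1 360 kb away (9.02, 21.1 and 18.7 CPM). Around SOX12, 17 genes were tested with 2 higher and 3 lower in PC3, and its neighbours ZCCHC3 (38.2, 48.6 and 28.7 CPM) and NRSN2 (34.4, 78.2 and 54.2 CPM) were under 4-fold apart in each pair.

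**Figure D5:**
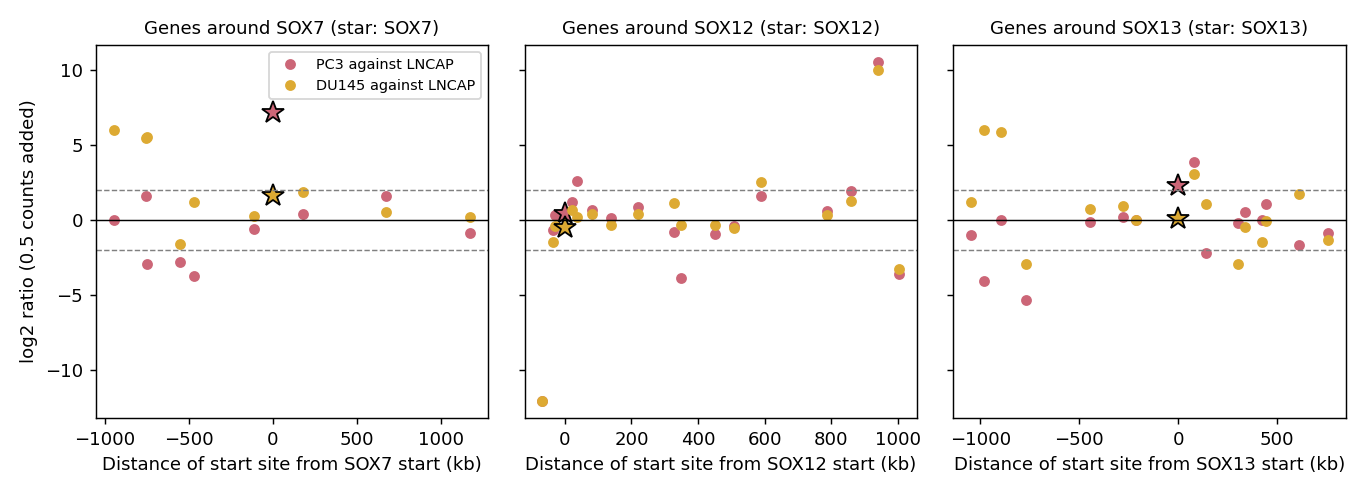
The log2 ratio against LNCAP of protein-coding genes tested around SOX7, SOX12 and SOX13, by distance of their start sites from the start of the SOX gene (kb, positive in its direction of transcription), with the SOX gene as a star and 4-fold as dashed lines. The stars of SOX7 (7.15) and SOX13 (2.24) in PC3 lie above most of the genes around them, and the SOX12 stars (0.39 and -0.53) lie within the spread of theirs.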

How the data were processed

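RNA sequencing counts of 3 cell lines were analysed, 1 library per line, grouped by the cell line label. The authors deposited whole-number read counts per gene and FPKM values per gene. Dividing a count by its gene length and by a library constant (1.03, 1.01 and 0.988 of the total for LNCAP, PC3 and DU145) gives the deposited FPKM. Cuffdiff 2.1.1, Cufflinks 2.1.1, TopHat2 2.0.9 and Bowtie2 2.0.6 are named, per the submitters' processing notes, with no role. The counting program, the strand setting and the build stand as not given in the sources used here. The 58735 gene identifiers are all in GENCODE release 29, on GRCh38, and 58724 have the same start and end.

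Genes with at least 1 CPM in a library (18025) were scaled with TMM (factors 1.02, 0.998 and 0.987; edgeR 4.0.16, R 4.3.3). Ratios have exact 95% conditional binomial (Clopper-Pearson) intervals and levels exact Poisson intervals (Python 3.11.15, scipy 1.17.1). Against 0 counts a fold is a bound from 3 counts in that library, and none is given where both have 3 or fewer. No molecular identifiers are stated, so reads may not be independent molecules, and intervals cover counting error only. The class comparison used edgeR's quasi-likelihood test, with DESeq2 1.42.0 and limma 3.58.1 as alternatives. The scripts were tested on simulated counts. Named genes are all members, 2 to 4 genes of each list with the largest ratios, genes that go against their list, and neighbours. Levels of further list genes were named after their values were seen. LINC00673 matched no gene name. The members and lists were chosen with earlier results of these data known. Y-linked genes were left out. Some listed genes are not reported here.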

Additional observations from a re-analysis of the deposited data

Results flagged for a closer look

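SOX4 and SOX12 were each higher than LNCAP in PC3 and lower than LNCAP in DU145, with all 4 counting intervals excluding a ratio of 1. The log2 ratio of SOX4 was 1.64 in PC3 and -0.82 in DU145. For SOX12 it was 0.39 in PC3 and -0.53 in DU145. With 1 library per line the difference was not tested over samples, and each of these 4 ratios is under 4-fold.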

How the results depend on the processing

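The counts of members 4-fold apart were 4 in PC3 against LNCAP, 2 in DU145 against LNCAP and 5 in PC3 against DU145. With 1 added to FPKM they were 2, 0 and 3. The calls over all 18025 genes fell as well. In PC3 against LNCAP they went from 2344 higher and 2407 lower to 908 and 746. In DU145 against LNCAP they went from 2473 and 2178 to 887 and 665, and in PC3 against DU145 from 1539 and 1909 to 474 and 523. In DU145 against LNCAP the count was 1 with a 5 CPM filter, which removes SOX11 and SOX6, and 1 with 0.1 added to FPKM. The other alternatives (DESeq2 size factors, library totals, no filter, 5 added counts, a 2-fold threshold) left these counts within 1.5 times. At 2-fold the calls over all genes rose, to 4119 higher and 4169 lower in DU145 against LNCAP, where the members stayed at 2. SOX11 lost its calls in both comparisons on either FPKM scale, where it is near 0. SOX13 lost its calls, and SOX15 its call in DU145 against LNCAP, with 1 added to FPKM, and SOX15 in PC3 against DU145 also lost its call with 0.1 added to FPKM or 5 added counts. SOX7 and SOX9 kept their calls under the 5 alternatives that change the ratio, as did SOX4 in PC3 against DU145. No ratio of a called member changed sign. Another scaling moved no member ratio out of its counting interval. In the class comparison each alternative called 0 members. DESeq2 called 1306 genes where edgeR called 0, and gave no adjusted p for 2 members. Without PC3 or without DU145 no residual degrees of freedom are left, so these fits were not run. No paired analysis was possible because each line has 1 library and the labels carry no replicate numbers. Depth limits SOX2, SOX18, SOX11 and SOX6, each at 36 counts or fewer in any library.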
